A study of Mus musculus with 6 samples.

Results

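The genes that build ceramide, convert it and turn it into sphingosine phosphate were examined in lungs of mice lacking the start of Zpbp2, the gene next to Ormdl3 on mouse chromosome 11. The 38 genes were chosen by symbol, namely the ORMDL regulators, the subunits of serine palmitoyltransferase, the enzymes of ceramide synthesis, conversion and breakdown, and the genes of sphingosine phosphate (S1P) turnover, export and sensing. All 38 were found among the 41388 genes of the count table, and all 38 had enough counts to be tested. RNA sequencing had been done on total RNA from lungs of adult mice taken at ZT7, 7 h into the light phase of a light and dark cycle (ZT stands for Zeitgeber time). The 3 control libraries (WT1 to WT3) came from C57BL/6J mice. The 3 Zpbp2 KO libraries (KO1 to KO3) came from mice of the same strain background that lack a stretch at the 5′ end of Zpbp2 and that had been bred in the same facility for several years. The sex and the exact age of the 6 mice were not given, and any difference at other loci between the KO line and its controls cannot be told apart from the deletion here.

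Sphingolipid synthesis begins in the endoplasmic reticulum, where serine palmitoyltransferase joins serine and palmitoyl-CoA, and the ORMDL proteins hold that enzyme back when ceramide is plentiful. Ceramide synthases then attach a fatty acid to the sphingoid base, and the ceramide is built into sphingomyelin, glucosylceramide or ceramide 1-phosphate, or is cut by ceramidases to sphingosine. Sphingosine kinases turn sphingosine into S1P, a signal that keeps the endothelial barrier of the lung tight and guides lymphocytes out of tissues, and variants near human ORMDL3 are associated with childhood asthma.

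The libraries held 59134950 to 71354388 counts each. Zpbp2, which checks the labels, had 20, 15 and 7 counts in WT1 to WT3 and 1, 0 and 0 in KO1 to KO3. KO2 and KO3 differed by little more than counting noise. Over genes with 2000 to 20000 counts in the pair, the variance between them, estimated from the median gene, was 1.93 times the counting variance, against 9.33 times between WT1 and WT2 and 21 times between KO1 and KO2, so they may come from 1 RNA sample although the labels give them as separate, and their counts were summed. The tests compared 3 WT samples with 2 KO samples. WT3 and KO1 stood apart from the other libraries on the first principal component, which held 52.4% of the variance. All 17 genes of a squamous epithelium list were higher in both of them than in the other 4 libraries, and the summed level of the list was 5196 CPM (counts per 1000000 counts of the library, with TMM-scaled library sizes) in WT3 and 9683 in KO1 against 140 to 216 elsewhere. Summed levels of other marker lists also lay apart between the genotypes. The 12 adipocyte markers summed to 1094 to 1704 CPM in WT and 382 to 547 CPM in KO, with 12 fitted values below 0 and 3 genes called. The 10 cardiomyocyte markers summed to 3212 to 7867 CPM in WT and 1441 to 2050 CPM in KO, with 10 fitted values below 0 and 0 genes called. The 10 alveolar type 2 markers summed to 22189 to 23175 CPM in WT and 31467 to 33138 CPM in KO, with 10 fitted values above 0 and 4 genes called. The part of these markers in the differences below was not tested. In bulk RNA, fewer cells of a type and less RNA per cell cannot be told apart.

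The sequences just upstream of the 3 ORMDL genes and of Cers6 are shown because Ormdl3 is the neighbour of the deleted gene, its 2 paralogues share its role, and Cers6 had the smallest adjusted p of the 38 genes. They are RefSeq sequences on GRCm38.p6, taken from the 250 bases before each RefSeq start and printed 5′ to 3′ on the strand of the gene, without the bases that GENCODE M21 places in an exon. Ormdl1 lies on the + strand and the stretch is chr1:53297019-53297094, Ormdl2 lies on the - strand (chr10:128821646-128821879), Ormdl3 lies on the - strand (chr11:98587369-98587495) and Cers6 lies on the + strand (chr2:68861191-68861440). Capitals mark matches on either strand to the CCAAT box, to the GC box, which is spelled GGGCGG, or to the E-box, which transcription factors of the helix-loop-helix family bind and whose letters are CACGTG. None of the matches overlapped another.
Ormdl1: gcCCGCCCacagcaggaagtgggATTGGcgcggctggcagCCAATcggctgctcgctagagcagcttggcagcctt
Ormdl2: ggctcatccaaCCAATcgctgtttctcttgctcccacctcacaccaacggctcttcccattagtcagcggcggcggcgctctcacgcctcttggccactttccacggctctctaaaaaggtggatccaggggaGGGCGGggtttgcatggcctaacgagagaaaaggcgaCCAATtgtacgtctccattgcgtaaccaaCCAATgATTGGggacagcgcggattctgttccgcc
Ormdl3: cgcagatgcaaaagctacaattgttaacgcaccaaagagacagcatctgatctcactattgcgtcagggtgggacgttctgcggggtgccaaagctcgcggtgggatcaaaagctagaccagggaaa
Cers6: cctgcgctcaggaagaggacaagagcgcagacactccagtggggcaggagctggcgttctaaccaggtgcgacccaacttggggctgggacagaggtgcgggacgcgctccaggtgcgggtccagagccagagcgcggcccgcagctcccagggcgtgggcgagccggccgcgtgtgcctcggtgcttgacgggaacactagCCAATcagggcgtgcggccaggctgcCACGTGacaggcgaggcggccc

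The Ormdl2 window of 250 bases held 5 CCAAT boxes, the last of them at the edge of the exon and not printed in full, and a GC box, and the Ormdl1 window held a pair of CCAAT boxes and a GC box. The Ormdl3 window held a cAMP response element (TGACGTCA) 28 to 21 bases before the RefSeq start and GC boxes at 99 to 94 and 20 to 15 bases, all within the 123 bases that GENCODE counts as the first exon of Ormdl3 and that are not printed. In the Cers6 window a CCAAT box lay 48 to 44 bases and an E-box 22 to 17 bases before the start. RefSeq listed windows for 35 of the 38 genes, 51 windows in all. An E-box was found in 8 of the 51 (15.7%) against 6.02% of all 32851 promoter windows of the same length, and a cAMP response element in 2 (3.92%) against 1.55%. A GC box was found in 29 (56.9%) against 32.7%, a CCAAT box in 16 (31.4%) against 33.8%, a nuclear receptor motif (AGGTCA) in 13 (25.5%) against 14.0%, and a TATA box (TATAAA) in 1 (1.96%) against 12.4%. Several windows of 1 gene share bases, and the windows were not matched for base composition. The windows of the ORMDL genes and Cers6 held 17 to 25 CG pairs, against a median of 6 over all windows. The letters of the E-box, the cAMP response element and the GC box include CG. These shares are a description of letters only.

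The first question was which of the 38 genes differed between KO and WT lungs. No gene of the pathway passed the test (edgeR quasi-likelihood test, two-sided, adjusted p of at most 0.05 over all genes tested), while 426 of 18660 genes did (2.28%). At an unadjusted p of at most 0.05 the count was 7 of 38 (18.4%), against 27.3% of all genes. Ormdl2, Cers5 and Smpd2 made up the 3 with a higher value in KO (13.9% of all genes), and Cers6, Sgms2, Asah2 and Acer2 the 4 with a lower value (13.4% of all genes). DESeq2 (Wald test on the same 5 samples) called 7 of 38, the ones just named, against 22.9% of the genes it tested. With the 6 libraries kept separate edgeR called 4 of 38 (Ormdl2, Cers6, Asah2 and Acer2), against 18.9% of the genes tested there. That fit counts KO2 and KO3 as separate samples. With a term for the squamous markers 3 of 38 were called, against 12.7%. That term mainly sets WT3 and KO1 apart from the rest of the 5 samples, so less is left to give the spread. The adjusted p of the edgeR test ran from 0.0551 for Cers6 to 0.997 for Ormdl1.

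The differences were small. The log2 fold change was below 0.25 in size in 30 of the 38 genes (78.9%), against 11167 of the 18660 genes tested. Its median over the 38 was 0.03, with quartiles of -0.08 and 0.16, beside 0.02, with -0.19 and 0.20, over all genes tested. The value was above 0 in 23 genes and below 0 in 15 (39.5%, against 47.8% of all genes). For 29 genes the 95% interval of the difference lay within 0.5 log2 units either side of 0. The interval was narrowest for Sgpp1, at 0.12 either side of its value, and widest for Sptssb, at 3.74, and a wide interval leaves room for a difference of either sign.

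**Figure D1:**
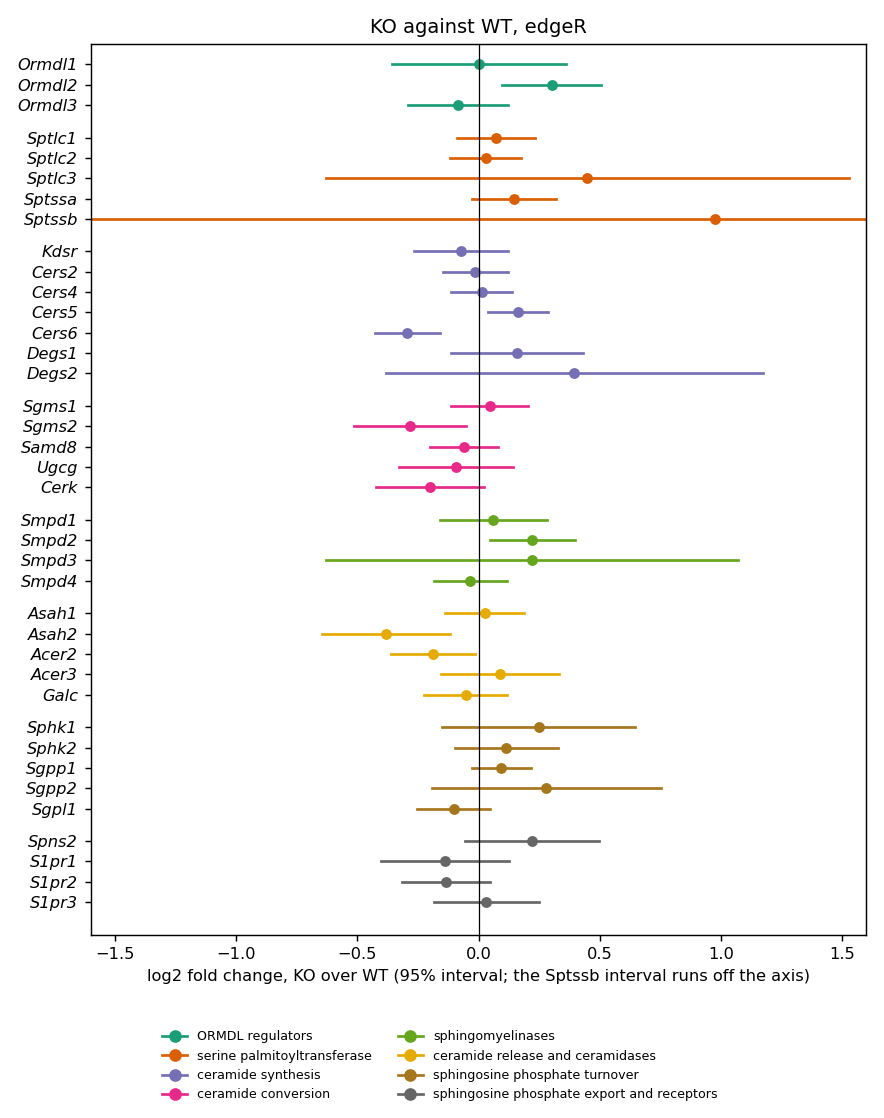
Log2 fold change in KO against WT lungs for the 38 pathway genes, grouped by role, with bars for the 95% interval from the edgeR fit of 3 WT and 2 KO samples. Before adjustment the intervals of Ormdl2, Cers5 and Smpd2 lie clear above 0 and those of Cers6, Sgms2, Asah2 and Acer2 clear below it, and the Sptssb interval runs off both ends of the axis.

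Levels between genes were compared per length, as CPM per kb of exon. In the median library the level ran from 0.516 for Degs2 to 87.1 for S1pr1, the S1P receptor of endothelial cells and lymphocytes. After S1pr1 came Cers2, the ceramide synthase for very long chains, at 72.4, Degs1, which makes the double bond of ceramide, at 48.9, and the ceramidases Acer2 and Asah1 at 47.2 and 47.1. S1pr1 and Cers2 overlapped in their ranges over the 6 libraries, but S1pr1 was above Cers2 within each library. The order of Degs1, Acer2 and Asah1 differed between libraries and was not resolved. Of the 38 genes, 17 reached 10 CPM per kb in every library and 9 were under 3 in the median library. Raw counts per library ran from 63 for Degs2 to 28290 for Acer2.

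**Figure D2:**
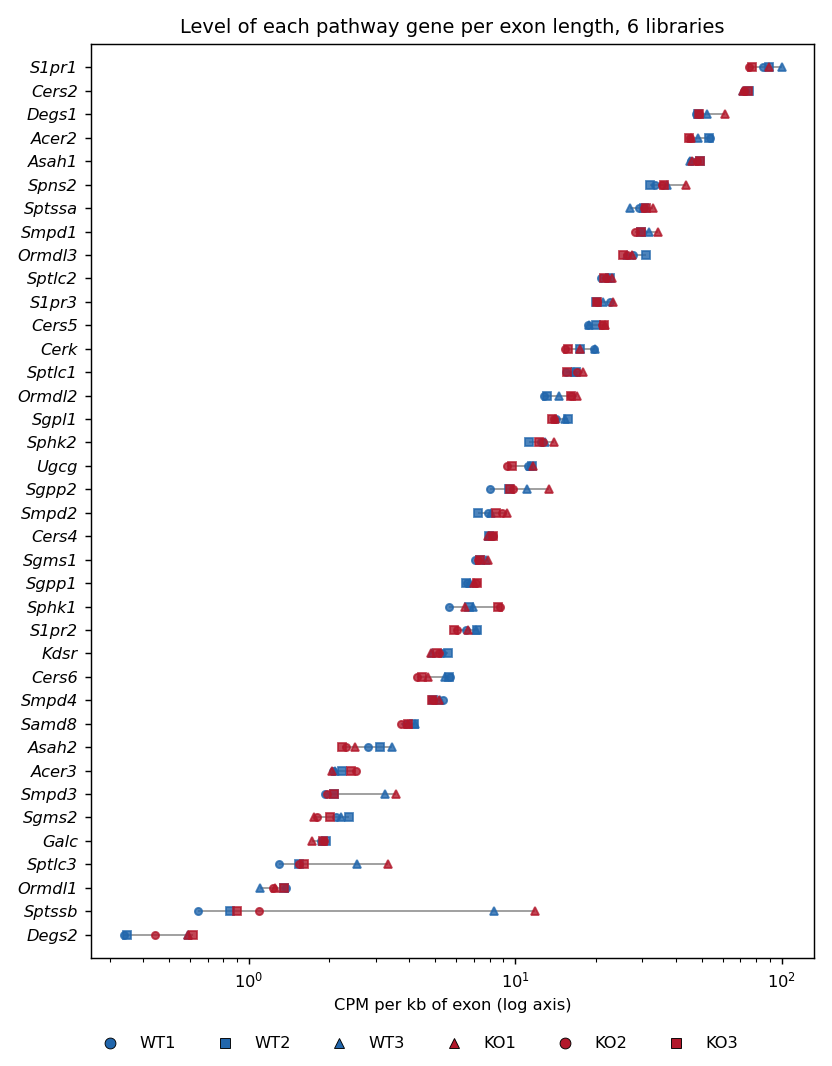
CPM per kb of exon on a log axis for the 38 genes, ordered by the median of the 6 libraries, with 1 point per library (WT blue, KO red, triangles for WT3 and KO1). The points of most genes lie close together, whereas those of Sptssb spread from under 1 to over 10, with WT3 and KO1 at the high end.

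The ORMDL genes encode the proteins that restrain serine palmitoyltransferase. Ormdl3 (chr11:98581256-98587368, - strand) ends 22.6 kb from the end of Zpbp2. Its level was 60.5, 67.7 and 57.5 CPM in WT1 to WT3 and 59.9, 57.4 and 55.5 CPM in KO1 to KO3. KO1 lay inside the WT range and the other 2 KO libraries lay just below it, so the groups overlapped. The means were 61.9 ± 5.24 (SD, n = 3) and 58.1 ± 2.43 CPM (SD, n = 2, KO1 and the mean of KO2 and KO3), and the log2 fold change was -0.08 (SE 0.08, 95% interval -0.29 to 0.12, edgeR adjusted p = 0.555). Over the 16 other ways of processing the data the value lay between -0.23 and -0.02 and the edgeR or DESeq2 adjusted p between 0.238 and 0.889.

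Ormdl2 (chr10:128817902-128821645, - strand), a paralogue with the same role, was at 21.4, 22.0 and 24.5 CPM in WT1 to WT3 and at 28.5, 27.0 and 27.1 CPM in KO1 to KO3. Each KO library lay above each WT library. WT averaged 22.6 ± 1.64 CPM (SD, n = 3) and KO averaged 27.8 ± 0.981 CPM (SD, n = 2), which is 22.9% higher, with a log2 fold change of 0.30 (SE 0.08, 95% interval 0.10 to 0.51) that missed the threshold (edgeR adjusted p = 0.0942). With a term for the squamous markers the edgeR adjusted p was 0.0473. With the 6 libraries kept separate, which counts KO2 and KO3 as separate samples, it was 0.0318, but 0.0864 with the replicate block on those libraries. It was 0.116 with library size alone, 0.145 with the length and GC offset and 0.0583 without WT3 and KO1. Exons of Ormdl2 overlap those of Dnajc14 on the other strand, and whether reads were counted by strand is not given in the sources used here.

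Ormdl1 (chr1:53297095-53310309, + strand), the third ORMDL gene, was at 6.50, 6.35 and 5.20 CPM in WT1 to WT3 and at 5.91, 5.80 and 6.39 CPM in KO1 to KO3. The groups overlapped, and the log2 fold change was 0.00 (95% interval -0.36 to 0.36, edgeR adjusted p = 0.997). Per kb of exon the order of the levels was Ormdl3 (25.4 to 31.0 over the 6 libraries), Ormdl2 (12.8 to 17.0) and Ormdl1 (1.10 to 1.38), with no overlap between neighbours. Exons of Ormdl1 overlap those of Gm28778 on the same strand, so its count and its level per kb are uncertain.

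Ormdl3 thus made up most of the ORMDL transcripts per length, and its share was compared between the groups after the values had been seen. It was 66.1%, 68.1% and 62.6% in WT1 to WT3 and 60.0%, 60.1% and 59.1% in KO1 to KO3, that is 65.6% ± 2.82 (SD, n = 3) and 59.8% ± 0.256 (SD, n = 2). The Ormdl2 share was 31.4% ± 3.04 in WT and 37.3% ± 0.0864 in KO. For both shares the KO libraries lay wholly outside the WT range. Ormdl1, whose count is uncertain, made up only 2.62% to 3.30% of the total as counted, so a rise in the Ormdl2 share goes with a fall in the Ormdl3 share. The shares are therefore not separate results, and the Ormdl3 level itself overlapped between the groups. No test was made of these shares.

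**Figure D3:**
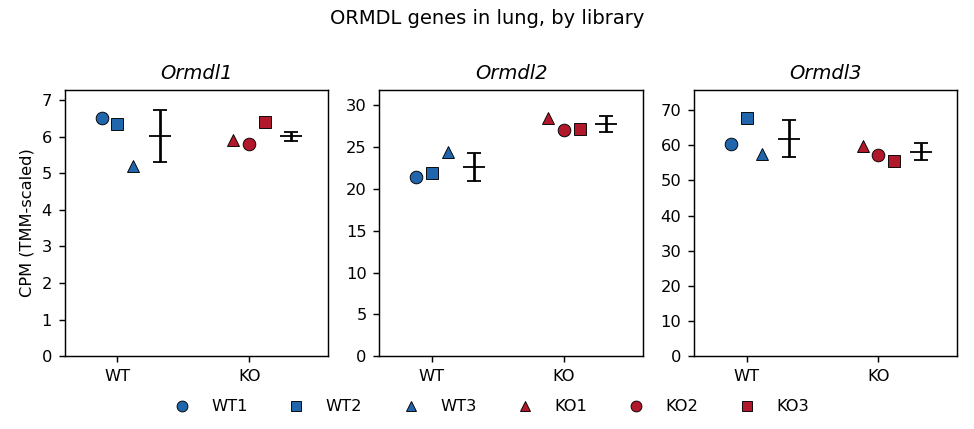
Level of Ormdl1, Ormdl2 and Ormdl3 in CPM in each of the 6 libraries, with bars for the mean ± SD (WT n = 3, KO n = 2, with KO2 and KO3 averaged). The KO points of Ormdl2 (27.0 to 28.5 CPM) sit above its WT points (21.4 to 24.5 CPM), while the groups overlap for Ormdl1 and Ormdl3.

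Serine palmitoyltransferase consists of the catalytic subunits SPTLC1, SPTLC2 and SPTLC3 and a small subunit, SPTSSA or SPTSSB, that sets its activity and chain length. None of the 5 genes passed the test, and all 5 fitted values were above 0. Sptlc1 and Sptlc2, the main catalytic pair, lay at 55.3 to 63.8 CPM and 170 to 186 CPM over the 6 libraries, with log2 fold changes of 0.07 (95% interval -0.09 to 0.23) and 0.03. Sptssa was at 44.1, 46.1 and 40.9 CPM in WT1 to WT3 and at 49.8, 46.2 and 47.0 CPM in KO1 to KO3. The KO libraries lay above the WT libraries, though KO2 was above WT2 by less than the spread within either group, and the log2 fold change was 0.15 (SE 0.07, 95% interval -0.03 to 0.32, edgeR adjusted p = 0.245).

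The remaining SPT subunits were high in the same libraries, 1 of each genotype. Sptssb was at 1.17, 1.55 and 15.1 CPM in WT1 to WT3 and at 21.6, 2.0 and 1.64 CPM in KO1 to KO3, so that the average of WT3 and KO1 was 11.5 times that of the other 4 libraries. Its share of the small subunit transcripts per length was 23.5% in WT3 and 26.5% in KO1 against 2.16% to 3.47% in the others. Sptlc3, which prefers shorter acyl chains, was at 3.70, 4.40 and 7.21 CPM in WT1 to WT3 and at 9.43, 4.40 and 4.57 CPM in KO1 to KO3. These are the libraries with the squamous markers. Without WT3 and KO1 the log2 fold change of Sptssb was 0.42 (edgeR adjusted p = 0.312), against 0.97 with them (95% interval -2.76 to 4.71, edgeR adjusted p = 0.717).

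In ceramide synthesis, KDSR reduces the first sphingoid intermediate, the ceramide synthases CERS2, CERS4, CERS5 and CERS6 attach fatty acids of different lengths, and DEGS1 and DEGS2 desaturate or hydroxylate the product. None of the 7 genes passed the test, with 4 fitted values above 0 and 3 below. Cers6 (chr2:68861441-69114282, + strand), a synthase of palmitoyl ceramides, was at 50.3, 49.9 and 48.4 CPM in WT1 to WT3 and at 41.8, 38.1 and 39.6 CPM in KO1 to KO3. Each KO library lay below each WT library, and the gap between the groups was wider than the range within either. WT averaged 49.6 ± 0.994 CPM (SD, n = 3) and KO averaged 40.3 ± 2.07 CPM (SD, n = 2), a difference of -18.6%.

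The log2 fold change of Cers6 was -0.29 (SE 0.05, 95% interval -0.43 to -0.16), which just missed the threshold (edgeR adjusted p = 0.0551). In edgeR fits it passed with the squamous term (adjusted p = 0.0375) and with a filter of 10 counts in every library (0.0489). It also passed with the 6 libraries kept separate (0.0116) and with the replicate block (0.0452), which both count KO2 and KO3 as separate samples. DESeq2 gave an adjusted p of 0.000109. Without WT3 and KO1 the only KO sample is the sum of KO2 and KO3, and WT1 and WT2 alone give the spread. The log2 fold change there was -0.37. With an offset for transcript length and GC content it was -0.10 (edgeR adjusted p = 0.533), so the size of the difference depended on that correction.

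Cers5, which also makes palmitoyl ceramides, was at 66.6, 71.1 and 66.8 CPM in WT1 to WT3 and at 76.6, 74.8 and 76.0 CPM in KO1 to KO3. The KO libraries lay above the WT libraries, with a log2 fold change of 0.16 (SE 0.05, 95% interval 0.04 to 0.29, edgeR adjusted p = 0.117). Of all ceramide synthase transcripts per length, Cers6 made up 5.34%, 5.13% and 5.10% in WT1 to WT3 and 4.26%, 4.04% and 4.09% in KO1 to KO3, and Cers5 made up 17.9% ± 0.370 in WT (SD, n = 3) and 19.7% ± 0.138 in KO (SD, n = 2). Both shares, which were chosen after the values had been seen, differed between the groups without overlap and in opposite directions. They come from the same counts as the levels and are not separate results, and no test was made of them. Cers2 held the largest share of the 6 synthases, 64.7% to 68.8%.

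Cers2 was at 268, 278 and 263 CPM in WT1 to WT3 and at 263, 264 and 274 CPM in KO1 to KO3, with a log2 fold change of -0.01 (95% interval -0.15 to 0.12). Cers4, a synthase of longer chains, was at 100, 97.9 and 97.3 CPM in WT and at 96.7, 101 and 101 CPM in KO. Kdsr was at 43.2, 45.4 and 39.5 CPM in WT and at 39.3, 42.0 and 41.4 CPM in KO. In all 3 genes WT3 and KO1 were the lowest libraries, by small margins, and the genotypes overlapped. Degs1 was at 123, 126 and 136 CPM in WT1 to WT3 and at 159, 126 and 127 CPM in KO1 to KO3, highest in KO1 and WT3, and Degs2 had under 2 CPM throughout.

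Ceramide is converted to sphingomyelin by SGMS1 and SGMS2, to ceramide phosphoethanolamine by SAMD8, to glucosylceramide by UGCG and to ceramide 1-phosphate by CERK. None of the 5 genes passed the test, and 4 of the 5 fitted values were below 0. Sgms2, the synthase of the plasma membrane, was at 13.3, 14.7 and 13.8 CPM in WT1 to WT3 and at 10.9, 11.2 and 12.6 CPM in KO1 to KO3. All KO libraries lay below all WT libraries, with means of 13.9 ± 0.737 (SD, n = 3) and 11.4 ± 0.682 CPM (SD, n = 2) and a log2 fold change of -0.28 (SE 0.09, 95% interval -0.51 to -0.05, edgeR adjusted p = 0.131). An offset for length and GC content moved it to -0.15 (edgeR adjusted p = 0.446).

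Cerk was at 94.6, 84.3 and 96.2 CPM in WT1 to WT3 and at 84.3, 74.0 and 75.7 CPM in KO1 to KO3. WT2 and KO1 were almost equal, so the separation of the groups was marginal, and the log2 fold change was -0.20 (SE 0.09, 95% interval -0.42 to 0.02, edgeR adjusted p = 0.217). Sgms1, the Golgi synthase, was at 74.3, 77.5 and 81.8 CPM in WT and at 83.2, 76.6 and 77.6 CPM in KO, highest in KO1 and WT3. Ugcg lay at 58.0 to 60.9 CPM in the 3 WT libraries and KO1 and at 48.7 and 50.5 CPM in KO2 and KO3. Samd8 lay at 28.5 to 32 CPM over the 6 libraries.

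Sphingomyelinases cut sphingomyelin and release ceramide, SMPD1 in the lysosome and the others as neutral enzymes. None of the 4 genes passed the test. Smpd2 was at 35.2, 32.4 and 36.1 CPM in WT1 to WT3 and at 41.5, 39.7 and 37.8 CPM in KO1 to KO3. Each KO library was above each WT library, with a log2 fold change of 0.22 (SE 0.07, 95% interval 0.05 to 0.40, edgeR adjusted p = 0.123), and its exons overlap those of Mical1 on the other strand. Smpd3 was at 10.1, 10.9 and 16.9 CPM in WT and at 18.7, 10.3 and 10.9 CPM in KO, and Smpd1 was at 99.5, 98.6 and 106 CPM in WT and at 114, 93.9 and 98.6 CPM in KO. Both were highest in KO1 and WT3, the mean of those 2 libraries being 1.69 times that of the others for Smpd3 and 1.13 times for Smpd1. Smpd4 lay at 44.1 to 48.4 CPM.

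Ceramidases cut ceramide to sphingosine, ASAH1 in the lysosome, ASAH2 at the cell surface, ACER2 in the Golgi and ACER3 in the endoplasmic reticulum and Golgi, while GALC breaks down galactosylceramide. None of the 5 genes passed the test. Asah2 (chr19:31982597-32108211, - strand) was at 32.6, 36.1 and 40.2 CPM in WT1 to WT3 and at 29.1, 26.9 and 26.1 CPM in KO1 to KO3. All KO libraries were below all WT libraries, with means of 36.3 ± 3.84 (SD, n = 3) and 27.8 ± 1.84 CPM (SD, n = 2), a difference of -23.5%. The log2 fold change was -0.38 (SE 0.10, 95% interval -0.64 to -0.12, edgeR adjusted p = 0.0984). In edgeR fits the adjusted p was 0.0296 with the squamous term and 0.0401 without WT3 and KO1, again with 1 KO sample and the spread from WT1 and WT2 alone, and an offset for length and GC content moved the value to -0.14 (adjusted p = 0.586).

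Acer2 was at 386, 381 and 348 CPM in WT1 to WT3 and at 327, 324 and 320 CPM in KO1 to KO3. The KO libraries were close together and below the WT libraries, with means of 372 ± 20.9 (SD, n = 3) and 325 ± 3.78 CPM (SD, n = 2) and a log2 fold change of -0.19 (SE 0.07, 95% interval -0.36 to -0.01, edgeR adjusted p = 0.161). An offset for length and GC content moved it to -0.03 (edgeR adjusted p = 0.854). Asah1 lay at 154 to 168 CPM, Acer3 at 31.5 to 38.7 CPM and Galc at 25.7 to 28.9 CPM, and in each of them the genotypes overlapped.

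**Figure D4:**
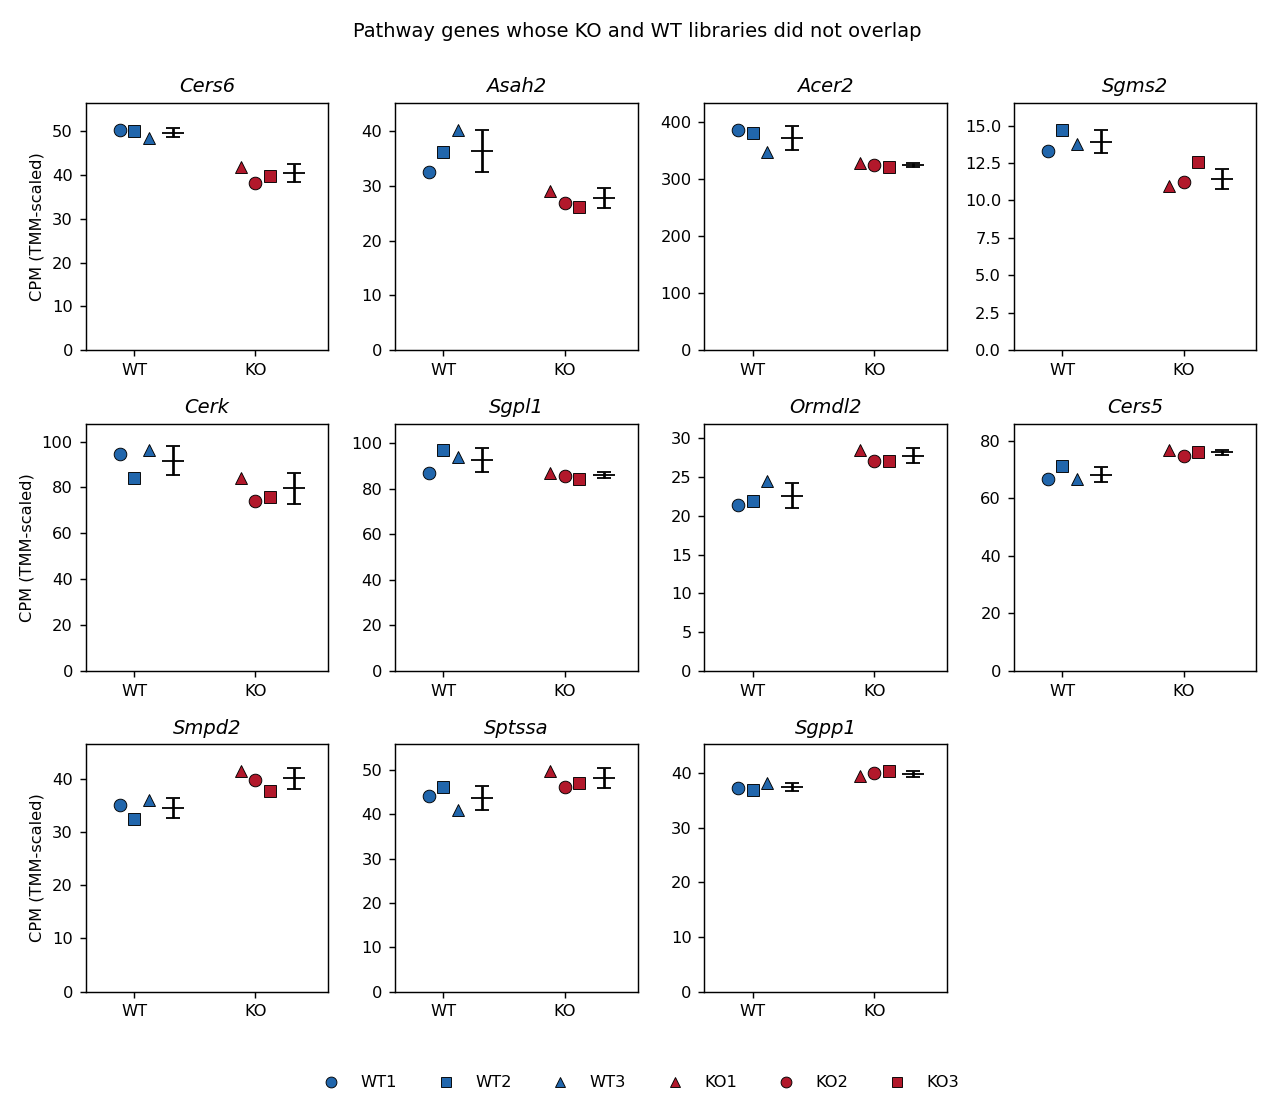
CPM per library of the 11 pathway genes whose KO and WT libraries did not overlap, with bars for the mean ± SD (WT n = 3, KO n = 2) and every vertical axis starting at 0. Cers6, Asah2, Acer2, Sgms2, Cerk and Sgpl1 are lower in every KO library and Ormdl2, Cers5, Smpd2, Sptssa and Sgpp1 higher, and for Cers6 the gap exceeds the range within either group (48.4 to 50.3 CPM in WT, 38.1 to 41.8 CPM in KO).

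Groups that do not overlap were common in these libraries. All KO libraries lay above all WT libraries in 5 of 38 genes (13.2%), against 20.0% of all genes tested, and below them in 6 (15.8%), against 20.8%. Both shares of the pathway genes were thus below the background.

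SPHK1 and SPHK2 make S1P, the phosphatases SGPP1 and SGPP2 return it to sphingosine, and the lyase SGPL1 destroys it. None of the 5 genes passed the test, and 4 of the 5 fitted values were above 0. Sphk1, the inducible kinase, was at 26.9, 31.9 and 33.1 CPM in WT1 to WT3 and at 31.0, 41.9 and 41.0 CPM in KO1 to KO3. KO1 lay among the WT libraries and KO2 and KO3 lay above all others, with a log2 fold change of 0.25 (SE 0.16, 95% interval -0.15 to 0.65, edgeR adjusted p = 0.369). Without WT3 and KO1 it was 0.49 (edgeR adjusted p = 0.0238), a fit that rests on WT1 and WT2 against the sum of KO2 and KO3. The 10 immediate early genes summed to 780 to 1132 CPM in WT, 1606 CPM in KO1 and 2973 and 2984 CPM in KO2 and KO3, and the 8 erythroid genes to 2415 to 5542 CPM in WT, 3979 CPM in KO1 and 19100 and 19836 CPM in KO2 and KO3. Their part in the Sphk1 level was not tested.

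Sphk2, the nuclear and mitochondrial kinase, was at 52.1, 47.0 and 53.8 CPM in WT1 to WT3 and at 58.0, 53.0 and 51.2 CPM in KO1 to KO3, with a log2 fold change of 0.12 (95% interval -0.10 to 0.33, edgeR adjusted p = 0.433). WT3 and KO1 were its highest libraries and the genotypes overlapped. Without KO1 the value was 0.029, and with the length and GC offset 0.046. Exons of Sphk2 overlap those of Dbp, a clock output gene on the other strand. Dbp rose in KO, from 71.3 to 73.4 CPM in WT to 150 CPM in KO1 and 216 and 211 CPM in KO2 and KO3 (log2 fold change 1.34, edgeR adjusted p = 0.0446). If counting ignored the strand, reads from the shared bases cannot be told apart.

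Sgpl1 was at 86.9, 96.8 and 94.0 CPM in WT1 to WT3 and at 86.8, 85.6 and 84.4 CPM in KO1 to KO3. WT1 and KO1 were almost equal, and the log2 fold change was -0.10 (SE 0.06, 95% interval -0.25 to 0.05, edgeR adjusted p = 0.332). Sgpp1 was at 37.2, 36.9 and 38.2 CPM in WT and at 39.4, 40.1 and 40.4 CPM in KO. The KO libraries were all higher, by a small amount (log2 fold change 0.09, SE 0.05, 95% interval -0.03 to 0.21, edgeR adjusted p = 0.270). Sgpp2 was at 32.1, 37.9 and 44.2 CPM in WT and at 53.4, 39.3 and 38.3 CPM in KO, highest in KO1 and WT3.

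SPNS2 carries S1P out of endothelial cells, and the receptors S1PR1, S1PR2 and S1PR3 sense it. None of the 4 genes passed the test, and in each the genotypes overlapped. Spns2 was at 137, 131 and 151 CPM in WT1 to WT3 and at 178, 145 and 148 CPM in KO1 to KO3 (log2 fold change 0.22, SE 0.11, 95% interval -0.05 to 0.49, edgeR adjusted p = 0.262), highest in KO1 and then WT3. Without KO1 the value was 0.065. S1pr1, which tightens the endothelial barrier, was at 258, 273 and 304 CPM in WT and at 272, 229 and 235 CPM in KO. KO2 and KO3 were its lowest libraries and KO1 lay within the WT range, with a log2 fold change of -0.14 (SE 0.10, 95% interval -0.40 to 0.13, edgeR adjusted p = 0.447), which was -0.27 without KO1 and -0.073 without WT3.

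S1pr2, which opposes S1PR1 in the endothelium, was at 52.2, 57.3 and 56.8 CPM in WT1 to WT3 and at 53.1, 48.2 and 46.9 CPM in KO1 to KO3 (log2 fold change -0.13, SE 0.07, 95% interval -0.31 to 0.05, edgeR adjusted p = 0.292). S1pr3 was at 101, 89.2 and 95.3 CPM in WT and at 103, 90.1 and 90.8 CPM in KO (log2 fold change 0.03, SE 0.09, 95% interval -0.19 to 0.25, edgeR adjusted p = 0.841). The order of S1pr2 over the libraries was like that of S1pr1 in that KO2 and KO3 were lowest. Per kb of exon the order of the receptors was S1pr1 (75.1 to 99.8), S1pr3 (20.0 to 23.2) and S1pr2 (5.88 to 7.19), with no overlap between neighbours. The 12 endothelial markers, of which none was called, summed to 5812 to 6295 CPM in WT and 5838 to 7026 CPM in KO. Their median log2 fold change was 0.08, with 4 fitted values below 0 and 8 above. The markers did not move together. Pecam1, Cdh5, Kdr, Tek and Vwf were also lowest in KO2 and KO3. Ramp2, Egfl7, Cldn5, Emcn and Esam were higher in every KO library than in every WT library. Their part in the receptor levels was not tested.

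KO2 and KO3 were both below the other 4 libraries in 11 of the 38 genes (28.9%), against 15.9% of all genes tested, and both above them in 4 (10.5%), against 17.1%. Among the 11 were S1pr1, S1pr2, Ugcg, Ormdl3, Cers6 and Asah2. This split was chosen after the values had been seen. KO2 and KO3 count as 1 sample in the tests, and this split was not tested.

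WT3 and KO1, which carry the squamous markers, were both above the other 4 libraries in 9 of the 38 genes (23.7%), against 12.3% of all genes tested, and both below them in 3 (7.89%), against 9.42%. The 9 were Sptlc3, Sptssb, Degs1, Sgms1, Smpd1, Smpd3, Sphk2, Sgpp2 and Spns2. The ratio of these libraries to the others was 11.5 for Sptssb, 1.95 for Sptlc3, 1.69 for Smpd3 and 1.32 for Sgpp2, and from 1.08 to 1.17 for the other 5. Krt4, a keratin of stratified epithelium, marks the size of the squamous signal, at 1985 CPM in WT3 and 3687 CPM in KO1 and under 1 CPM in each of the other libraries. Krt6a was at 0 counts in those 4 libraries.

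The same libraries stood out among further genes of the pathway. A wider list of 50 sphingolipid genes, covering other synthases, glycosphingolipid enzymes, fatty acid elongases, transfer proteins and phosphatases, held 49 genes that could be tested. None was called (edgeR quasi-likelihood test, against 2.28% of all genes), 9 had an unadjusted p of at most 0.05 (18.4%, against 27.3% of all genes), and 4 were called with the 6 libraries kept separate (8.16%, against 18.9%), so both shares were below the background. WT3 and KO1 were both highest in 16 of the 49 (32.7%, against 12.3% of all genes) and both lowest in 3 (6.12%, against 9.42%). Cers3, the synthase of the very long ceramides of the skin barrier, reached 8.86 CPM in WT3 and 14.4 CPM in KO1, while the other libraries had 0.669 to 1.37 CPM. Elovl4, the elongase that makes its substrates, was at 16.0 and 22.1 CPM in WT3 and KO1 and under 1 CPM elsewhere, and so was Abca12, which loads glucosylceramide into lamellar granules (16.9 and 20.0 CPM). These 3 genes were chosen after their values had been seen.

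**Figure D5:**
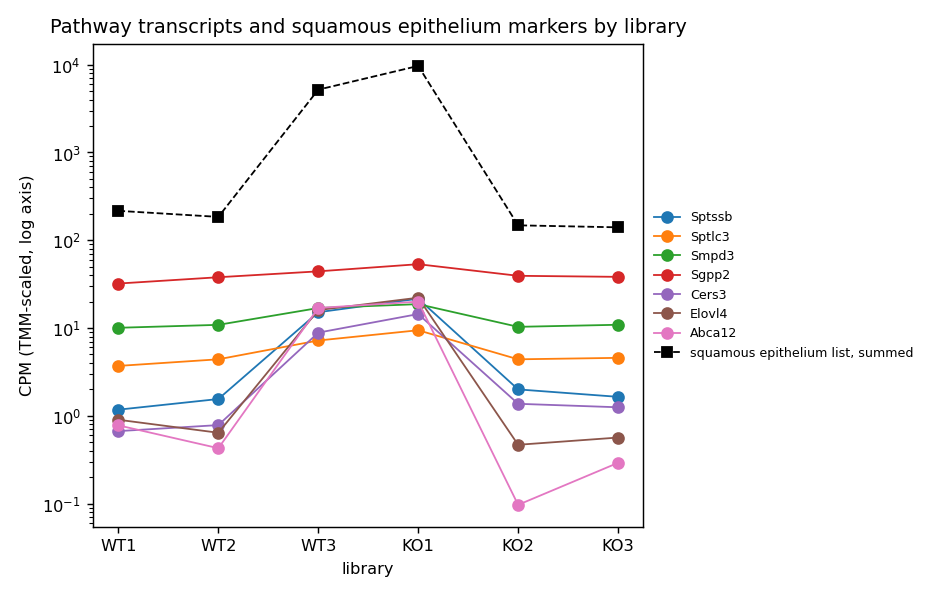
CPM per library on a log axis for 4 pathway genes (Sptssb, Sptlc3, Smpd3, Sgpp2), 3 genes of the wider list (Cers3, Elovl4, Abca12) and the summed squamous epithelium list (dashed line, squares). Lines join the values of 1 gene and carry no order, and all 8 traces are highest in WT3 and KO1, where the list reaches 5196 and 9683 CPM.

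By the rule that named the wider list's 2 largest fitted changes each way, Acer1 had a log2 fold change of 1.45 with 0, 0 and 184 counts in WT1 to WT3 and 352, 1 and 0 counts in KO1 to KO3 (edgeR adjusted p = 0.771). Apom, the S1P carrier of plasma lipoproteins, had 1.21 with 4 to 15 counts per library (edgeR adjusted p = 0.149). The elongase Elovl3 had -3.31 with 105 counts in WT2 and 14 or fewer in every other library (edgeR adjusted p = 0.253). Elovl6, an elongase of palmitate, was at 15.9, 55.1 and 36.8 CPM in WT and at 20.1, 7.82 and 8.91 CPM in KO (log2 fold change -1.33, edgeR adjusted p = 0.251). Acer1 was again high in WT3 and KO1, and Elovl3 and Elovl6 were both highest in WT2, the library with the most adipocyte marker RNA (1704 CPM). Elovl6 was lower in WT1, with 1205 CPM of those markers, than in KO1, with 382 CPM of them. The part of adipocyte RNA in these levels was not tested.

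Of the 38 genes, 16 share exon bases with another gene in GENCODE M21, 9 of them with a protein-coding gene, and 22 share none. The genes that share bases with a protein-coding gene are Ormdl1, Ormdl2, Cers2, Degs2, Smpd2, Smpd3, Sphk2, Sgpp2 and Spns2, so their counts are uncertain. Ormdl1 shares them on its own strand with Gm28778, and the other 8 on the opposite strand, where the setting of the strand decides. Cers6, Asah2, Acer2 and Ormdl3 share none.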

How the data were processed

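Total RNA from 6 mouse lungs at ZT7 (3 WT and 3 Zpbp2 KO, given by the study as 1 mouse per library) had been sequenced, and groups and replicate numbers came from the sample labels. The authors trimmed reads (Trimmomatic 0.36), aligned them to GRCm38 (STAR 2.5.3a) and deposited raw read counts per gene (HTSeq 0.6.0), with Picard 2.9.0 also named in the submitters' processing notes. The annotation release and the strand setting are not given in the sources used here. All 6 count columns were used.

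Counts were tested with edgeR 4.0.16 in R 4.3.3 (filterByExpr, TMM, quasi-likelihood test, two-sided, Benjamini-Hochberg over all genes tested), with KO2 and KO3 summed. Standard errors and 95% intervals came from the same fit. CPM used TMM-scaled library sizes of the 6 libraries, and levels per kb used the exon length of GENCODE M21, which held 97.3% of the gene identifiers. The code was tested on simulated data. Alternatives were other scalings and filters, 6 separate libraries, a replicate block, DESeq2 1.42.0, a squamous marker term, a length and GC offset (splines with 5 degrees of freedom) and leaving libraries out.

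The 38 genes, the lists and the tests were chosen with earlier results of these data known. The text may name all 38 genes, gives every library for the ORMDL genes, the S1P receptors and genes whose libraries separate by genotype or by WT3 and KO1, and names the 2 largest changes each way of the wider list. Of the other marker lists, summed CPM was 7003 to 7540 in WT and 7850 to 8157 in KO for alveolar type 1, 28458 to 33430 and 37797 to 50085 for club, 2042 to 2357 and 1974 to 2725 for ciliated, 4747 to 5635 and 5854 to 6218 for macrophage genes (most of it Lyz2, with 8 of 10 fitted values below 0 and 1 gene called, Mrc1, which was lower), 635 to 774 and 604 to 795 for B cell (7 of 8 genes found) and 126 to 145 and 99.5 to 182 for hepatocyte genes (median log2 fold change 3.67, 0 called, with Alb at 0.966 to 1.27 CPM over the WT libraries, 3.06 CPM for KO1, 24.0 CPM for KO2, 25.0 CPM for KO3). Each p-value sets the difference between KO and WT against the spread between these samples, and depth sets only the counting error.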

Additional observations from a re-analysis of the deposited data

How the results depend on the processing

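The count of genes called was 426 in the reported fit. It was 3402 with the 6 libraries kept separate, 1157 with the replicate block on them, 3919 with DESeq2, 2364 with the squamous term, 937 with at least 10 counts in every library and 2256 without WT3 and KO1, and it was 0 with the length and GC offset in edgeR, where 3499 genes had an unadjusted p of at most 0.05. Leaving out 1 library at a time gave 0 to 418 genes, with 0 without WT1, WT2 or WT3 (3642, 3346 and 4193 at an unadjusted p of at most 0.05), 17 without KO1, 355 without KO2 and 418 without KO3. In the fits without KO1 (with WT3 kept or left out) the sum of KO2 and KO3 was the only KO sample and was assumed to vary like the WT samples. The count of pathway genes called, 0 in the reported fit, was 4 of 38 (10.5%) with separate libraries, against 18.9% of all genes tested. DESeq2 called 7 (18.4%), against 22.9%, and the squamous term 3, against 12.7%. The block called 1, against 1157 of 18014 genes, and the filter of 10 counts 1, against 937 of 16919. No pathway gene was called in the fits without WT1, WT2, WT3, KO2 or KO3.

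Deviations from the group means did not follow the replicate numbers in WT1 and WT3. They cannot exclude a pairing, as WT3 and KO1 share the squamous signal. The deviations of WT1 and KO1 correlated at -0.480 and those of WT3 and KO3 at -0.653, against 0.564 for WT2 and KO2, and WT3 went with KO1 (0.736). The block gave 1157 calls, against 3402 in the same fit without it, with Cers6 as the 1 pathway gene called, and WT1 and WT3 did not correlate best with the KO library of their own number.

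Some fitted values changed sign, most of them near 0. With library size alone the log2 fold change was -0.030 for Asah1, -0.042 for Cers4, -0.054 for Ormdl1, -0.022 for S1pr3, -0.0078 for Sgms1 and -0.025 for Sptlc2, while the median of all genes moved to -0.04. With the length and GC offset it was 0.26 for Galc, 0.11 for Kdsr, 0.11 for Samd8, 0.015 for Sgpl1, -0.019 for Smpd1, 0.11 for Smpd4 and 0.0068 for Ugcg, and the median of the 38 genes was 0.11 with 10 below 0. The offset shrank the values of Cers6, Asah2, Acer2 and Sgms2. It enlarged those of Acer3 to 0.38, Cers4 to 0.26, Sgms1 to 0.27 and Sptlc2 to 0.21. Under it 11 of the 38 genes had an unadjusted edgeR p of at most 0.05, against 3499 of 18660. Ormdl1 was at -0.0026 with DESeq2 size factors, -2.7e-05 without the count filter, -0.0036 with DESeq2 and -0.0035 with at least 10 counts. S1pr3 was at -0.0041 with separate libraries and -0.0054 with the block. Without WT3 and KO1 the value was 0.0010 for Galc, -0.081 for Ormdl1, -0.074 for S1pr3, -0.045 for Smpd1 and -0.0047 for Sptlc2. Leaving out 1 library at a time, the value ran from -0.00050 to 0.059 for Asah1, -0.020 to 0.20 for Degs1, -0.064 to 0.0062 for Galc, -0.097 to 0.063 for Ormdl1, -0.075 to 0.078 for S1pr3, -0.017 to 0.080 for Sgms1, -0.078 to 0.090 for Smpd1, -0.25 to 0.49 for Smpd3, -0.0046 to 0.098 for Sptlc1, -0.017 to 0.043 for Sptlc2, -0.19 to 0.78 for Sptlc3 and -1.70 to 3.10 for Sptssb. The cause of these changes was not tested. Ormdl2, Ormdl3, Cers5, Cers6, Sgms2, Smpd2, Asah2 and Acer2 kept their direction in all 16 alternatives. So did Cers2, whose value was -0.01, and Acer3, Cerk, Degs2, Sptssa, Sphk1, Sphk2, Sgpp1, Sgpp2, Spns2, S1pr1 and S1pr2. A kept direction was thus common among the 38 genes. Leaving out 1 library moved the value by over 1.5 times, or turned its sign, in 27 of the 38 genes. The interval of the median gene among the 38 reached 0.21 log2 units either side, which is the precision that 3 WT and 2 KO samples gave.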
